A study of Homo sapiens with 6 samples.

Results

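The nuclear genes for respiratory complexes II, III and IV, for cytochrome c and for complex V, the ATP synthase, were followed in NALM6 cells, an established human B-cell acute lymphocytic leukemia (B-ALL) line. Members were the genes of the deposited expression table with the symbols SDHA, SDHB, SDHC, SDHD, CYC1 or CYCS, or with symbols starting with UQCR, with COX4 to COX8, or with ATP5, and pseudogenes and antisense genes were left out. These 44 genes, of 12296 with a symbol in a table of 16730 genes, comprised 4 genes of complex II, 10 of complex III, 1 for cytochrome c, 10 of complex IV, 17 of complex V and 2 with ATP5 names that are not structural subunits. RNA-SEQ compared 3 libraries of NALM6 cells given 500 nM THZ1, a covalent inhibitor of cyclin-dependent kinase 7 (CDK7), for 24 h with 3 libraries given DMSO, the solvent control, for the same time. All 6 libraries came from 1 cell line and 1 time point, and the methods speak of independent experiments only for the study in general. Neither the labels nor the RNA-SEQ methods say that these libraries came from separate cultures, so p-values measure only the spread between these libraries, which may be technical. The study asked how CDK7 inhibition affects the metabolism of B-ALL cells.

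Oxidative phosphorylation passes electrons from nutrients along complexes in the mitochondrial inner membrane to oxygen and uses the resulting proton gradient to make ATP. Complex II, succinate dehydrogenase, is also an enzyme of the TCA cycle, complex III hands electrons to cytochrome c, complex IV reduces oxygen, and complex V lets protons flow back through its membrane part, Fo, to drive ATP synthesis in its catalytic head, F1. All complex II subunits are encoded in the nucleus, whereas complexes III, IV and V each also hold subunits encoded by mitochondrial DNA.

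Nuclear genes of this pathway are known to share binding sites of NRF1, of ETS factors such as GABP and of YY1, and the promoters below are shown as examples with several such matches, from members that moved in both directions. They are the 250 bases before the start of SDHA and ATP5MD, which were lower with THZ1, and of SDHD, which was higher, written 5′ to 3′ on the strand of the gene, from RefSeq (GRCh38.p14), with motif matches in capitals. The capitals mark NRF1 (GCGCA and GCGC with any base between them) in SDHA, at chr5:218070-218319 on the plus strand, NRF1 and then ETS (CCGGAAG or its reverse complement) in SDHD, at chr11:112086623-112086872 on the plus strand, and a pair of overlapping ETS matches on opposite strands in ATP5MD, at chr10:103396476-103396725 on the minus strand.
SDHA: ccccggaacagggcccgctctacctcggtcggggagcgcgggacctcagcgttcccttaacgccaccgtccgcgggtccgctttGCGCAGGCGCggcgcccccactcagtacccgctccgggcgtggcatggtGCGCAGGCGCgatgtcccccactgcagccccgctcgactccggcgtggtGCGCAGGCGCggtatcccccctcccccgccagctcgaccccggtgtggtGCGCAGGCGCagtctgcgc
SDHD: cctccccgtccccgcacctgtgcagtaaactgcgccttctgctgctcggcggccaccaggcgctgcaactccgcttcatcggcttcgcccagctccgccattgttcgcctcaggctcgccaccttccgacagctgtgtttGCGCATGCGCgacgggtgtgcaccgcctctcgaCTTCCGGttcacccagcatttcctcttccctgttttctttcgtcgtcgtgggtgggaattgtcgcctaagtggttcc
ATP5MD: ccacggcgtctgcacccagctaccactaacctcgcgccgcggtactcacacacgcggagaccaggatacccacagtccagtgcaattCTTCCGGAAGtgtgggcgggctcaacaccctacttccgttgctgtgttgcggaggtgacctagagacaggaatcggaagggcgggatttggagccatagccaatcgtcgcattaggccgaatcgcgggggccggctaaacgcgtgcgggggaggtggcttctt

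SDHA held 4 NRF1 matches, each 49 bases from the next, with the nearest beginning 19 bases before the start. Promoters of 300 bases, 250 before and 50 after the start, matched 33 of the 44 members, and both strands were searched with overlapping matches counted. NRF1 was found in 10 of the 33 (30.3%) against 6.28% of 27305 promoters, ETS in 13 (39.4%) against 10.7%, YY1 (AAGATGGC) in 5 (15.2%) against 3.03%, and the E-box CACGTG in 4 (12.1%) against 7.43%. Of the 20 members with a promoter that were lower with THZ1, 5 held NRF1, 7 ETS, 4 YY1 and 2 the E-box, and of the 10 that were higher, 4 held NRF1, 5 ETS, 0 YY1 and 2 the E-box. A match is a description of letters in this window and not a binding site.

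Library totals were 11015480 to 11164840 counts with DMSO and 7876402 to 8314306 with THZ1. Pearson correlations of the libraries were 0.988 to 0.993 within a treatment and 0.755 to 0.764 between treatments. Levels below are CPM, read counts normalised to library size with TMM factors. Levels of different genes are ranked as the deposited FPKM values, which are per length. Ratios of counts between genes and sums of CPM over genes are not per length and serve only to compare treatments. The 3 libraries of a treatment share nearly the same sorted FPKM values, so the spread of FPKM within a treatment may be too small. A gene was called at an adjusted p below 0.05 (edgeR's quasi-likelihood test, Benjamini-Hochberg over the 16622 genes tested). That call was made for 84.5% of all genes tested, 41.1% lower and 43.5% higher, so it says little by itself and the size of each change is given with it. Of 9 B-lineage markers, all were detected, with summed levels of 2727 to 2804 CPM in DMSO-treated cells and 1475 to 1557 CPM in THZ1-treated cells, and 7 were lower and 1 was higher. CD22 (-2.56) and CD79A (1.33) were the ends of that list. Of 9 markers of other lineages, which summed to 11.8 to 20.2 CPM in DMSO-treated cells and 30.4 to 34.1 CPM in THZ1-treated cells, 5 were tested, CD14 (3.75) and COL1A1 (2.08) were higher and LYZ was lower (-0.83). CD3D had no count in any DMSO library and at most 2 in a THZ1 library. In bulk RNA, fewer cells of a kind and less RNA per cell cannot be told apart.

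Of the 44 members, 43 had enough counts to be tested. With THZ1, 22 were lower and 15 higher, and 6 passed in neither direction, beside 41.1% lower and 43.5% higher among all genes tested. Rises and falls given here are relative to the other RNA of a library, and amounts of RNA per cell were not measured. In CPM, 35 of the 43 had groups without overlap, against 84.7% of all genes tested. The median log2 fold change of the members was -0.32 (quartiles -0.87 and 0.41), beside 0.03 (quartiles -0.90 and 1.46) for all genes tested. The members' median minus that of all genes, -0.35, depends on the background. It was -0.18 with a count of 10 in every library and -0.79 with no filter. Over 14420 genes, Spearman's rho of log2 fold change with mean FPKM with DMSO was -0.482, so the background differs with level. A fall of at least 1.5 on the log2 scale was called for 5 members, all of complex V, with 12.9% of all genes as background. A rise of that size was called for 2, both of complex IV, with 24.6% as background. These were COX7A1 and COX6B2, which each had 2, 1 and 1 counts with DMSO and could be tested only through their THZ1 counts. Of the 41 members above 3 counts in at least 1 DMSO library, 22 were lower and 13 higher, and 0 rose by that size. Scaling by library size alone moved the median of all genes to -0.22 and upper quartile factors moved it to 0.22, and called changes of members of up to 0.52 in size lost their call under one of these scalings, as given below. In limma on the FPKM table the calls of UQCR11, COX6C, COX7A2, ATP5F1D and ATP5IF1 were also lost (log2 fold changes of 0.23, 0.15, 0.07, 0.07 and 0.12).

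**Figure D1:**
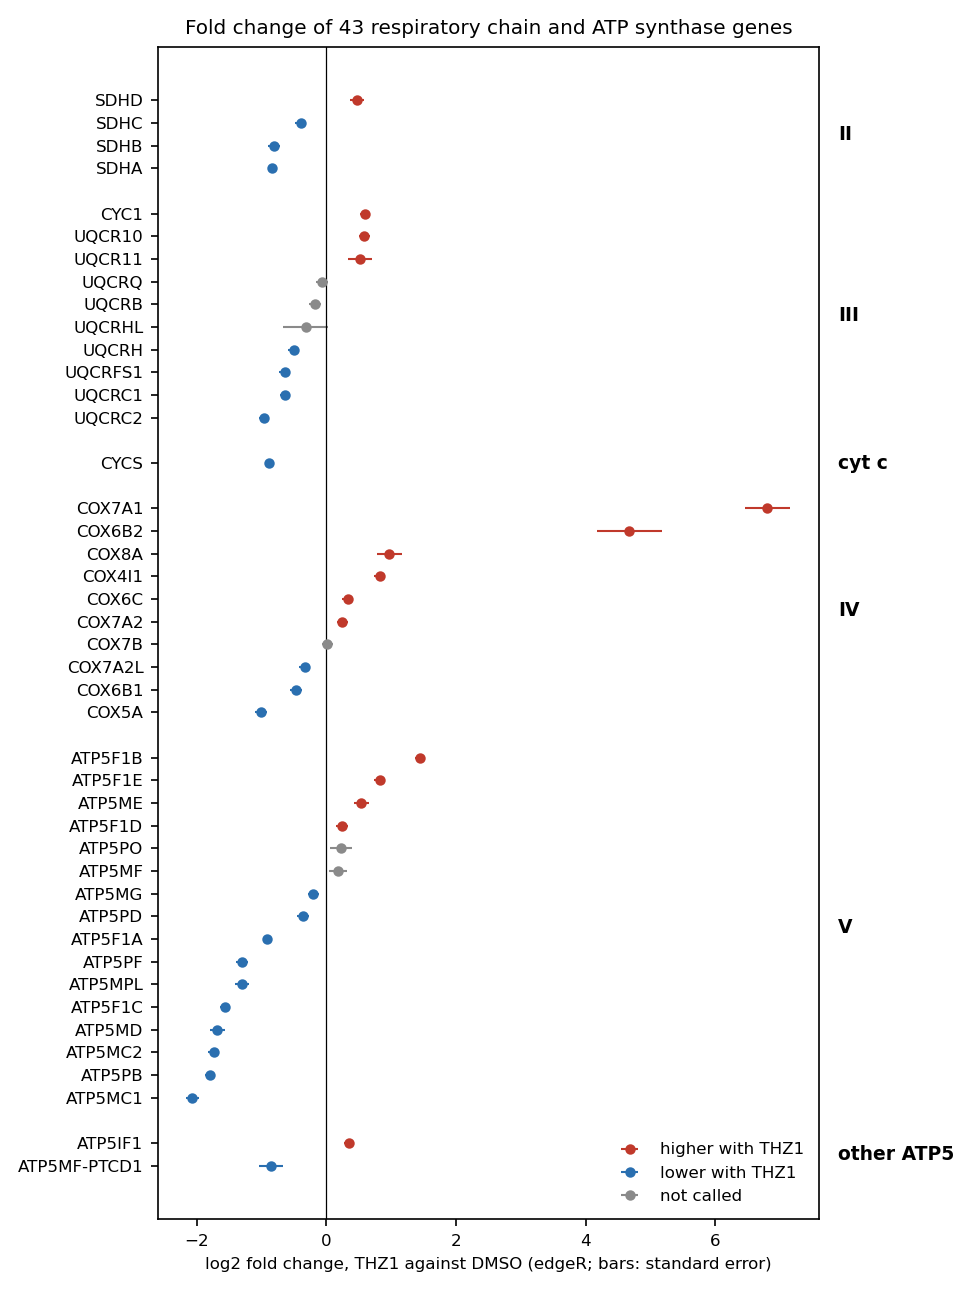
Log2 fold change (THZ1 against DMSO, x axis) of the 43 members tested, by complex, with standard errors from edgeR as bars and colours for higher, lower and not called. Complex V spans -2.07 for ATP5MC1 to 1.44 for ATP5F1B, and COX7A1 and COX6B2 stand far to the right, where the fitted values rest on almost no reads with DMSO.

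The complexes were ordered by their median log2 fold changes as complex V (-0.64), complex II (-0.61), complex III (-0.25) and complex IV (0.29), with cytochrome c, a single gene, at -0.88. All genes tested had a median of 0.03. This order changes with the processing. Relative to all genes, limma on log2(FPKM + 1) gave -0.68 for complex II, -0.39 for III and -0.29 for V, and with no filter II was lowest (-1.14, against -0.89 for V) and IV turned to -0.25. Counting calls, 3 of 4 members of complex II were lower and 1 higher, and 4 of 10 of complex III were lower and 3 higher. In complex IV 3 of 10 were lower and 6 higher, and in complex V 10 of the 16 tested were lower and 4 higher. Among all genes tested, 41.1% were lower and 43.5% higher. The median and the 6 rises of complex IV include COX7A1 and COX6B2, which had almost no reads with DMSO. The medians and counts leave out subunit genes without FPKM values, which are not members. Those that could be tested were COX5B (-1.31), COX7C (-1.35) and COX6A1 (2.002) of complex IV and ATP5MC3 (-1.44) of complex V.

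**Figure D2:**
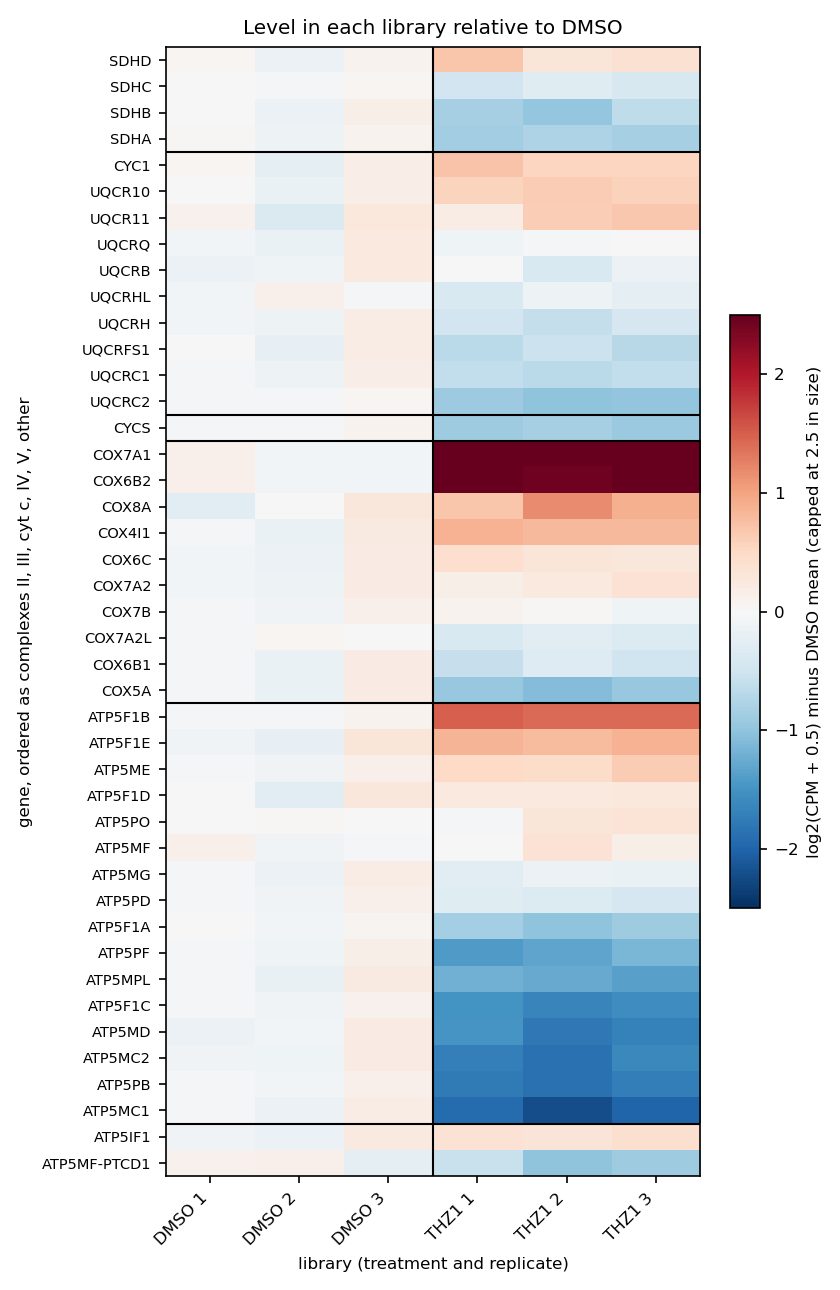
Level of each tested member in each library as log2(CPM + 0.5) minus the mean of the 3 DMSO libraries, with colours capped at 2.5 in size and genes ordered by complex. The 3 THZ1 libraries share one colour for most members, and DMSO 3 is slightly above the other DMSO libraries in many rows.

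In complex II, the catalytic flavoprotein and iron-sulfur subunits fell and 1 of the membrane anchors rose. SDHA, the flavoprotein that oxidizes succinate, was at 238, 214 and 248 CPM in DMSO-treated cells and 127, 135 and 130.1 CPM in THZ1-treated cells. The groups did not overlap, and the log2 fold change was -0.84 (SE 0.07, edgeR adjusted p = 3.4e-12). SDHB, the iron-sulfur subunit, fell by nearly the same amount, from 90.8 ± 9.39 to 51.5 ± 6.30 CPM (SD, n = 3 each), with a log2 fold change of -0.82 (SE 0.09, edgeR adjusted p = 1.5e-09).

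SDHC and SDHD anchor the enzyme in the membrane and bind heme and ubiquinone. SDHC was at 56.3, 54.0 and 57.8 CPM in DMSO-treated cells and at 40.2, 45.1 and 42.2 CPM in THZ1-treated cells, a log2 fold change of -0.40 (SE 0.09, edgeR adjusted p = 0.00013). SDHD was the one member of complex II that rose, from 40.5, 35.5 and 41.9 CPM to 63.9, 48.6 and 50.9 CPM. All 3 THZ1 libraries were above all DMSO libraries, and the log2 fold change was 0.47 (SE 0.10, edgeR adjusted p = 8.0e-05). The summed FPKM of the 4 genes was 230 ± 12.8 with DMSO and 150.4 ± 8.09 with THZ1 (SD, n = 3 each), a ratio of 0.654. SDHA has near-identical pseudogenes, and how the counting treated reads shared with them was not given in the sources used here.

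In complex III, the core proteins and the Rieske protein fell and cytochrome c1 rose. UQCRC2, a core protein, showed the largest fall of the complex, from 196, 197 and 208 CPM in DMSO-treated cells to 106, 99.9 and 101 CPM in THZ1-treated cells. The log2 fold change was -0.97 (SE 0.07, edgeR adjusted p = 5.9e-14). UQCRC1, the other core protein, fell by 0.64 on the log2 scale, as did UQCRFS1, the Rieske iron-sulfur protein, and UQCRH, the hinge protein, fell by 0.51.

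CYC1, cytochrome c1, which passes electrons to cytochrome c, was at 142, 118 and 154 CPM in DMSO-treated cells and at 227, 199 and 200.4 CPM in THZ1-treated cells. The THZ1 libraries were all higher, with a log2 fold change of 0.60 (SE 0.08, edgeR adjusted p = 6.0e-08), the highest of the complex. The small subunit UQCR10 also rose (0.58), without overlap of the groups. UQCR11, another small subunit, was called higher at 0.52 (edgeR adjusted p = 0.00979), but 1 THZ1 library, at 9.07 CPM, lay below the highest DMSO library at 9.54 CPM, and the call was lost without DMSO 2, THZ1 2 or THZ1 3 (0.33, 0.44 and 0.41), with library sizes alone (0.27) and in limma on the FPKM table (0.23).

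The 3 members of complex III not called were UQCRB, UQCRQ and UQCRHL. UQCRB, which takes part in ubiquinone binding, was at 75.1 ± 11.5 CPM in DMSO-treated cells and 66.3 ± 8.78 CPM in THZ1-treated cells (SD, n = 3 each). Its log2 fold change was -0.18 and it turned to 0.02 with upper quartile factors, whereas it was called lower with library sizes alone (-0.42) and with no filter (-0.26). Without DMSO 1, DMSO 2 or THZ1 1 it was also called lower, at -0.26, -0.26 and -0.27. UQCRQ, a ubiquinone-binding subunit, was at 77.2 ± 12.0 and 73.7 ± 2.68 CPM, with a log2 fold change of -0.07 that turned to 0.13 with upper quartile factors and was 0.0006 with RLE factors. It was called lower with library sizes alone (-0.31) and without DMSO 2 (-0.17). UQCRHL, a copy of UQCRH nearly identical to it in sequence, had only 10 to 25 counts per library and a log2 fold change of -0.32 (SE 0.34), and reads of UQCRH and UQCRHL may have been split between them. On the FPKM scale UQCRHL went from 3.26 to 0.912, a difference of -1.16 in log2(FPKM + 1), so the deposited tables disagree in size for this gene. That difference was called by limma, a call that rests on the spread of FPKM within a treatment.

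CYCS, cytochrome c, which carries electrons from complex III to complex IV and triggers caspase activation when it leaves the mitochondrion, was at 244, 245 and 269 CPM in DMSO-treated cells. It was at 137, 142 and 133 CPM in THZ1-treated cells, without overlap. The log2 fold change was -0.88 (SE 0.07, edgeR adjusted p = 5.0e-13). CYC1 and CYCS moved apart, with a log2 ratio of CYC1 to CYCS counts of -0.88 ± 0.15 with DMSO and 0.60 ± 0.12 with THZ1 (SD, n = 3 each).

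In complex IV, subunits of the same enzyme moved in both directions. COX7A1 and COX6B2, isoforms known from other tissues, rose from almost no reads with DMSO. Among other isoforms of the complex, COX6A2, COX7B2 and COX8C had no count in any library. COX4I2 had 2 counts in THZ1 1 and none elsewhere. COX4I1, a regulatory subunit present in most tissues, rose from 275, 252 and 331 CPM in DMSO-treated cells to 522, 497 and 496 CPM in THZ1-treated cells. The log2 fold change was 0.82 (SE 0.08, edgeR adjusted p = 3.0e-11). COX5A, which sits beside COX4I1 in the enzyme, fell from 117, 109 and 141 CPM to 62.7, 57.03 and 62.7 CPM. Its log2 fold change was -1.01 (SE 0.09, edgeR adjusted p = 4.8e-12), the lowest among the members of the complex. COX7C (-1.35) and COX5B (-1.31), subunit genes that are not members, fell further.

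Among the other members of complex IV, the small subunit COX8A rose by 0.97 at a low level, from 5.65 ± 1.23 to 11.1 ± 2.01 CPM (SD, n = 3 each). COX6C rose by 0.33 and COX7A2 by 0.25, though scaling by library size alone left log2 fold changes of 0.08 and 0.0015 that were not called, and COX7A2 was not called without DMSO 1, DMSO 2 or THZ1 3 (0.20, 0.16 and 0.18). The call of COX7A2 was also lost with no filter (0.16). COX6B1, which joins the dimer on the outer face, fell by 0.47 on the log2 scale. COX7A2L, known as a factor that links complexes III and IV into supercomplexes, fell by 0.34, a call that was lost with upper quartile factors. COX7B was not called, at 69.0 ± 5.41 CPM in DMSO-treated cells and 69.5 ± 4.70 CPM in THZ1-treated cells, with a log2 fold change of 0.01, but it was called lower with library sizes alone (-0.24) and higher with upper quartile factors (0.20), so its direction is set by the scaling.

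COX7A1, the isoform of heart and skeletal muscle, had 2, 1 and 1 counts with DMSO and 114, 105 and 89 counts with THZ1. The ratio of the summed counts, scaled by library, was 125, with an exact 95% interval of 48.2 to 461 that covers counting error only. Its level reached 13.8 ± 1.67 CPM in THZ1-treated cells, and per length it moved from rank 42 to rank 21 of the 44 members, from 1.14 to 60.6 FPKM. It lies at chr19:36641824-36643351 on the minus strand (GRCh37), with no other annotated gene on either strand there.

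COX6B2, the isoform known from testis, had 2, 1 and 1 counts with DMSO and 23, 20 and 27 with THZ1, a ratio of 28.4 with an exact 95% interval of 10.6 to 107. On the FPKM scale its means were only 0.644 and 1.28, so the size of its rise differs between the deposited tables. COX6B2 shares its strand with an overlapping annotated gene, as do COX8A, SDHD, UQCR11, ATP5PO, ATP5MG, ATP5MC2 and ATP5MD. A gene on the opposite strand overlaps UQCRB, UQCRQ, COX4I1, COX6C, ATP5F1E, ATP5MC1, ATP5ME, ATP5PB, ATP5PD, ATP5PF and ATP5IF1. The same holds for ATP5MD, ATP5MF, ATP5MF-PTCD1, ATP5MG and ATP5PO. How reads shared by such pairs were counted, and whether by strand, was not given in the sources used here. The smallest counts of complex V were those of ATP5MGL, a copy of the g subunit gene, with 0, 0 and 2 counts against 7, 7 and 4, too few to be tested. Its ratio was 14.6 with an exact 95% interval of 3.49 to 130, and it lies within CYB5R3 on the same strand.

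Complex V held both the largest rise among members expressed with DMSO and the deepest falls. ATP5F1B, the catalytic beta subunit of the F1 head, was at 832, 818 and 900.5 CPM in DMSO-treated cells and at 2384, 2261.5 and 2279.5 CPM in THZ1-treated cells. The lowest THZ1 library was well above the highest DMSO library, and the log2 fold change was 1.44 (SE 0.07, edgeR adjusted p = 1.3e-18). ATP5F1A, the alpha subunit, which alternates with beta in the same hexamer, went the other way, from 539, 515 and 568 CPM to 301, 268 and 291 CPM. Its log2 fold change was -0.92 (SE 0.07, edgeR adjusted p = 1.2e-13).

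The gene of the beta subunit lies at chr12:57031959-57039768 on the minus strand (GRCh37) and holds the small nucleolar RNA gene SNORD59A on the same strand. ATP5F1B has the highest level per length of all members in both treatments, at 1125 FPKM with DMSO and 2266 FPKM with THZ1. Its share of the summed FPKM of complex V was 41.1 ± 2.29% with DMSO and 73.1 ± 0.973% with THZ1 (SD, n = 3 each). The sum over the 17 genes was 2740 ± 63.5 FPKM with DMSO and 3100.1 ± 43.2 FPKM with THZ1, a ratio of 1.13. Without ATP5F1B the sum fell from 1615 ± 93.6 to 834 ± 21.9 FPKM, a ratio of 0.516, so a total over the complex was carried by 1 gene.

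**Figure D3:**
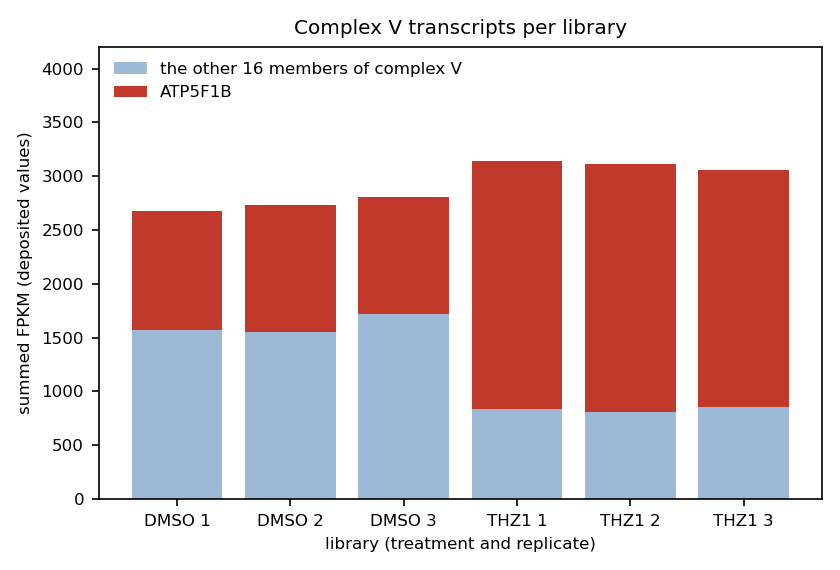
Summed deposited FPKM of complex V in each library, split into ATP5F1B (red) and the other 16 members (blue). The blue part is lower in all 3 THZ1 libraries than in any DMSO library, while the whole bar is higher.

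The other subunits of F1 were also split. ATP5F1C, the gamma subunit that turns inside the head, was at 179, 173 and 198 CPM in DMSO-treated cells and at 65.1, 58.0 and 62.0 CPM in THZ1-treated cells. It fell by 1.57 on the log2 scale (SE 0.08, edgeR adjusted p = 4.1e-18). ATP5F1E, the epsilon subunit of the central stalk, rose by 0.82, from 120.0 ± 22.5 to 212 ± 5.75 CPM (SD, n = 3 each). ATP5F1D, the delta subunit, was called higher at 0.23 (edgeR adjusted p = 0.0215), but the groups overlapped, the log2 fold change turned to -0.01 with library sizes alone, and the call was lost without DMSO 1, DMSO 2, THZ1 2 or THZ1 3 (0.20, 0.08, 0.22 and 0.22). That call was also lost with no filter (0.15).

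Of the 11 tested members of the membrane part and the peripheral stalk, 8 fell, 1 rose and 2 were not called. Among all genes tested, 41.1% were lower and 43.5% higher. The median log2 fold change of these 11 was -1.30, whereas the 5 members of F1, counted with the central stalk, had a median of 0.23. The latter is the value of ATP5F1D, which was 0.08 without DMSO 2 and -0.01 with library sizes alone. The difference between these parts was not tested. ATP5MC1 and ATP5MC2 encode the same mature c subunit of the rotor ring. ATP5MC1 showed the largest fall of all members, from 101, 93.2 and 117 CPM in DMSO-treated cells to 26.7, 21.7 and 25.3 CPM in THZ1-treated cells, a log2 fold change of -2.07 (SE 0.10, edgeR adjusted p = 1.7e-18). ATP5MC2 fell by 1.74 on that scale.

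ATP5PB, the b subunit of the peripheral stalk, was at 199, 196 and 225 CPM in DMSO-treated cells and 60.2, 56.6 and 61.9 CPM in THZ1-treated cells, a log2 fold change of -1.80 (SE 0.08, edgeR adjusted p = 1.3e-19). Per length it moved from rank 7 to rank 28 of the members. ATP5PF, the F6 subunit beside it in the stalk, fell by 1.30, and ATP5PD, the d subunit, fell by 0.36 on the log2 scale, a call lost with upper quartile factors. ATP5MD and ATP5MPL, small proteins of the membrane part, fell by 1.68 and 1.30.

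ATP5ME, the e subunit, was the one member of the membrane part that rose, from 18.9, 18.5 and 21.5 CPM in DMSO-treated cells to 27.9, 27.1 and 30.6 CPM in THZ1-treated cells. Its log2 fold change was 0.54 (SE 0.11, edgeR adjusted p = 6.1e-05). ATP5MG, the g subunit, was called lower by a small amount (-0.20, edgeR adjusted p = 0.0202). That call was lost in fits that include RLE factors, upper quartile factors, DESeq2 and those without DMSO 3 (-0.13) or without THZ1 1 (-0.17). ATP5PO, the subunit that confers oligomycin sensitivity, was not called, at 7.99 ± 0.10 CPM in DMSO-treated cells and 9.34 ± 1.38 CPM in THZ1-treated cells, and its log2 fold change of 0.22 turned to -0.03 with library sizes alone and was called higher with upper quartile factors (0.42). ATP5MF, the f subunit, was at 13.4 ± 1.05 and 15.2 ± 2.02 CPM and was not called either, with a log2 fold change of 0.17 that turned to -0.07 with library sizes alone and was called higher with upper quartile factors (0.37) and with 10 counts in every library (0.31).

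The remaining ATP5 names were not structural subunits. ATP5IF1, the inhibitor that binds F1 and blocks ATP hydrolysis, rose from 117, 112 and 145 CPM to 158, 154 and 164 CPM, a log2 fold change of 0.35 (edgeR adjusted p = 0.00021) that was 0.10 and not called with library sizes alone. ATP5MF-PTCD1, a readthrough transcript that shares exons with ATP5MF, fell by 0.86 on the log2 scale, from 11.1 ± 1.58 to 6.12 ± 1.10 CPM (SD, n = 3 each), and how shared reads were assigned was not given in the sources used here.

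Ratios of read counts within a library do not depend on scaling between libraries, and 10 pairs were compared. In 9 of them the DMSO and THZ1 libraries did not overlap, each with a 2-sided exact permutation p = 0.1, the smallest that 3 against 3 allows, and p = 0.111 after Benjamini-Hochberg adjustment, so none could pass 0.05. The alpha to beta ratio, ATP5F1A to ATP5F1B, was 0.648, 0.629 and 0.631 with DMSO and 0.126, 0.118 and 0.127 with THZ1, 5.13-fold lower. SDHA and SDHB had a ratio of 2.47 to 2.63 with DMSO and 2.23 to 2.95 with THZ1, with overlapping groups and a difference of -0.02 on the log2 scale (exact permutation p = 1.0), which does not show that the ratio was unchanged. Its SD on the log2 scale was 0.05 with DMSO and 0.20 with THZ1.

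The log2 ratio of UQCRC1 to UQCRC2 differed by 0.33 between the treatments, that of COX7A2 to COX7A2L by 0.59, and that of ATP5MC1 to ATP5MC3 by -0.64. ATP5MC3, a further c subunit gene, was in the count table only. The inhibitor fell relative to the catalytic subunit, with a log2 ratio of ATP5IF1 to ATP5F1B of -2.78 ± 0.12 with DMSO and -3.86 ± 0.06 with THZ1 (SD, n = 3 each).

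**Figure D4:**
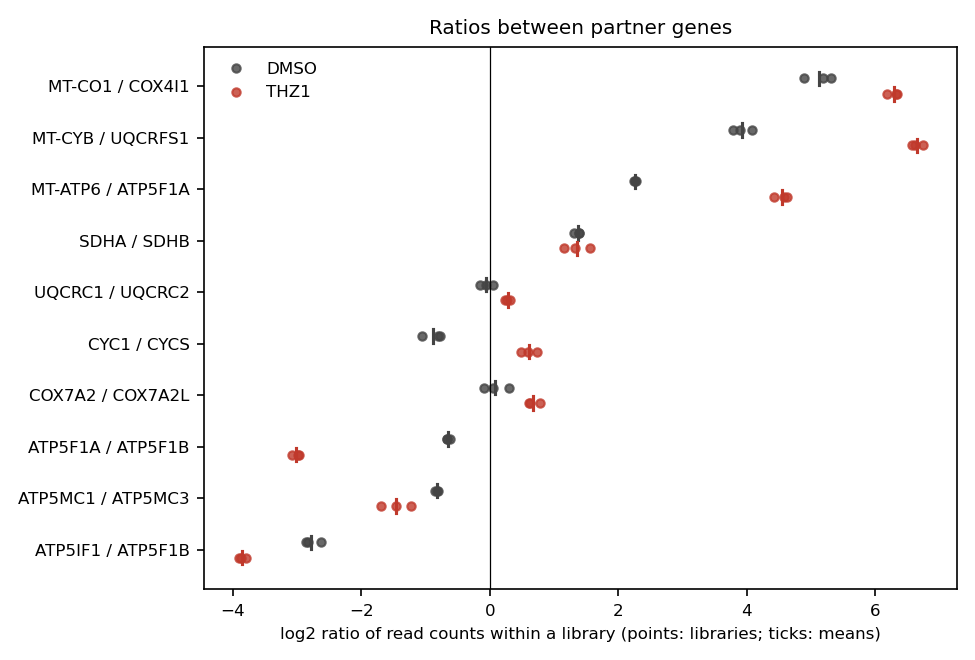
Log2 ratio of read counts of 10 pairs of partner genes (x axis) in each DMSO (grey) and THZ1 (red) library, with ticks at the means. The colours are separate in every pair but SDHA and SDHB.

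Subunits encoded by mitochondrial DNA were set beside their nuclear partners. All 6 of the genes listed for complexes III, IV and V were higher with THZ1, from 1.36 for MT-ATP6 to 2.09 for MT-CYB on the log2 scale, with a median of 1.67. Mitochondrial genes took 4.32 to 4.37% of counts with DMSO and 12.6 to 13.6% with THZ1, and the part of that shift in the values of the nuclear members was not tested. The log2 ratio of MT-CYB to UQCRFS1 was 2.72 higher with THZ1 in counts and 1.42 higher in FPKM. In counts, that of MT-ATP6 to ATP5F1A was 2.28 higher and that of MT-CO1 to COX4I1 was 1.16 higher, with no overlap of the groups in any of the 3 pairs.

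Levels per length spanned from 0.597 FPKM for ATP5MGL to 1125 FPKM for ATP5F1B with DMSO. UQCRH, COX5A and ATP5F1C followed ATP5F1B with DMSO, at 312, 271 and 234 FPKM, and their libraries did not overlap. The next members, CYC1, COX6B1 and ATP5PB, were at 207, 196 and 195 FPKM and their libraries overlapped. As given above, the spread of FPKM within a treatment may be too small. With THZ1, CYC1 at 254 FPKM and COX4I1 at 252 FPKM followed ATP5F1B, and these did not differ beyond their spread. COX5A moved from rank 3 to rank 11 and ATP5F1C from rank 4 to rank 19.

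**Figure D5:**
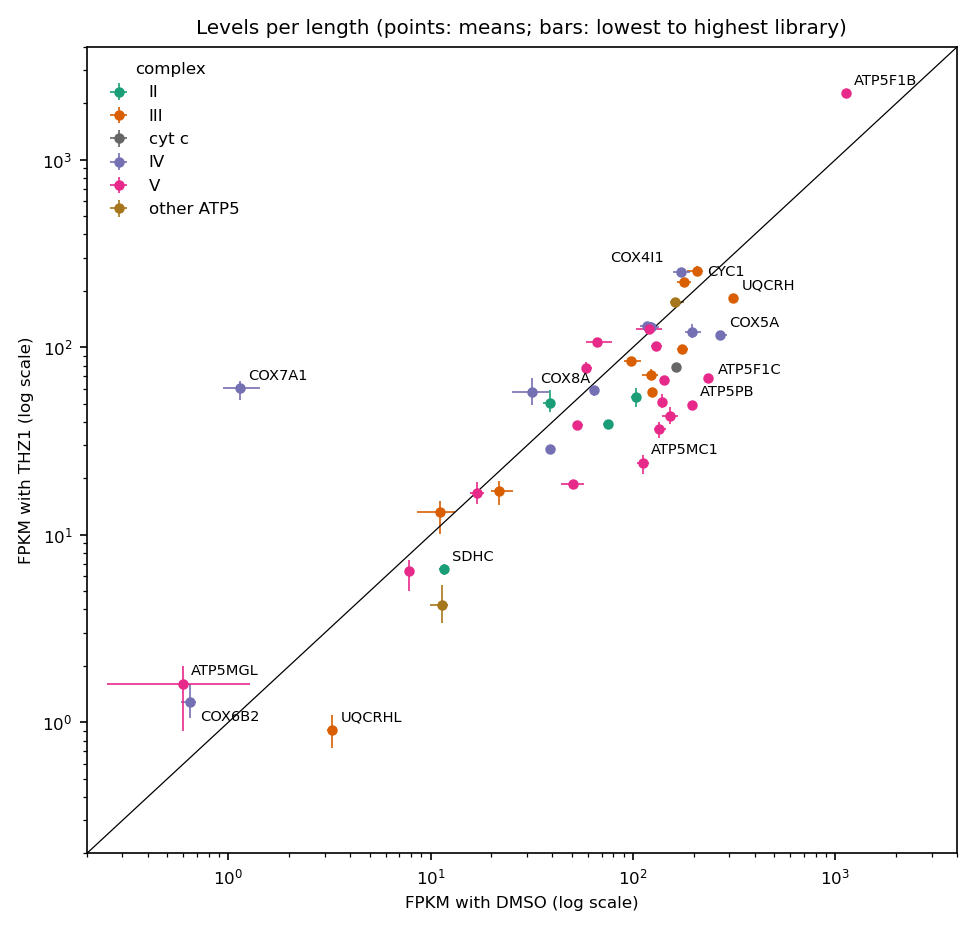
Mean deposited FPKM of the 44 members with DMSO (x axis) and with THZ1 (y axis), both on log scales, with bars from the lowest to the highest library and the diagonal of equal levels. ATP5F1B is at the top on both axes, COX7A1 lies far above the diagonal, and ATP5PB, ATP5F1C and ATP5MC1 lie below it.

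Summed over members, the complexes differed in how much of their FPKM was left with THZ1. The ratio was 0.654 for complex II, 0.798 for complex III, 0.477 for CYCS, 0.939 for complex IV and 1.13 for complex V. These sums leave out COX5B, COX7C and COX6A1 of complex IV and ATP5MC3 of complex V, which had no FPKM values. From DMSO to THZ1, mean CPM went from 94.8 to 38.2 for COX5B and from 139 to 54.6 for COX7C. It went from 3.61 to 14.6 for COX6A1 and from 184 to 67.6 for ATP5MC3. Over all 44 members the sum was 5579 ± 240 FPKM with DMSO and 5465 ± 53.9 FPKM with THZ1 (SD, n = 3 each), a ratio of 0.980, in which the rise of ATP5F1B offset falls elsewhere. In CPM the ratio was 1.22 for complex IV and 1.09 for all 44 members, so the direction of both totals depends on the scale.

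Assembly factors, which help to build the complexes and are not part of them, also moved in both directions, as did all genes tested (41.1% lower and 43.5% higher). For complex III, 4 of 6 were lower and 2 higher, from -2.91 for UQCC2 to 1.31 for UQCC3. For complex IV, 11 of the 21 tested were lower, 4 higher and 6 not called, from -2.04 for COX11, a copper chaperone, to 1.71 for PET100. That list also counts LRPPRC, TACO1 and FASTKD1, which are not assembly factors in the strict sense, and all of these were lower. For complex II, 1 of 4 was lower (SDHAF3, -1.22), 1 was higher (SDHAF4, 0.80) and 2 were not called, and for complex V, 1 of 4 was lower (TMEM70, -0.98), 1 was higher (FMC1, 2.77, from 1 to 8 counts per DMSO library) and 2 were not called.

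Of 11 listed regulators of nuclear or mitochondrially encoded genes of these complexes, 5 were lower, 3 higher and 2 not called. PPARGC1A had no count in any library. MYC showed the largest fall (-2.89), and PPRC1, a coactivator of the PGC-1 family, the largest rise (0.63). For comparison, 39 genes with NDUFA, NDUFB, NDUFC, NDUFS or NDUFV symbols, names used for complex I, were tested. The list was set by symbol alone, and whether each gene is a structural subunit was not checked. Of these 39, 18 were lower, 17 higher and 4 not called. The median log2 fold change was -0.09, with a range from -2.44 for NDUFB5 to 3.75 for NDUFA4L2. The background for the regulators and for these genes is 41.1% lower and 43.5% higher among all genes tested.

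Fold changes were also set against gene size and level. Over 41 members, leaving out COX7A1, COX6B2 and ATP5MGL, Spearman's rho of log2 fold change with the annotated span of the gene was -0.425 and with the exon length -0.216, and over 16092 genes tested it was -0.389 with the span. With the mean FPKM with DMSO, rho was -0.188 over the members and -0.482 over 14420 genes. The points share the 6 libraries, and the values are descriptions across genes, which are not independent replicates.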

How the data were processed

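RNA-SEQ was analysed for 3 DMSO and 3 THZ1 libraries of NALM6 cells, with groups and replicate numbers from the sample titles. The authors filtered reads with cutadapt, aligned them with STAR to GRCh37 and deposited raw gene counts from htseq-count for 57905 genes. The annotation and strand setting of that step were not given in the sources used here. They also deposited an expression table made with RSEM, read here as log2(FPKM + 1) from its values and used for levels per length. In it the 3 libraries of a treatment share the same maximum and nearly the same sorted values, from a step that was not stated. Such a step may narrow the spread within a treatment, so SDs, overlaps and limma calls on FPKM may understate the spread between libraries. Its columns of fold changes, p-values and false discovery rates hold the authors' own comparison and were not used.

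Counts were fitted with edgeR 4.0.16 (R 4.3.3) by treatment, after filterByExpr (minimum count 10, minimum total 15) and TMM scaling, with the quasi-likelihood test and Benjamini-Hochberg adjustment over 16622 genes. Fold changes are THZ1 over DMSO. Means are given with the SD over libraries. Genes at 3 counts or fewer in every DMSO library were given as ratios of counts with an exact interval. Pair ratios were tested with exact permutation (scipy 1.17.1). The members named with values were, per complex, the highest and lowest, those not called, those against the majority and those at 3 counts or fewer, plus the genes of the pairs, and further members were chosen after their values were seen. The members and lists were chosen with earlier results of these data known. The fit was repeated with upper quartile or RLE factors, without any factors, in DESeq2 1.42.0, with a count of 10 in every library, with no filter, with the replicate block, with each library left out, in limma 3.58.1 on the FPKM table, and with a fold threshold of 1.5 on the log2 scale. The fit was tested on simulated counts. Gene positions and overlaps come from GENCODE annotation on GRCh37, and promoters from RefSeq on GRCh38.p14, where the names ATP5MK and ATP5MJ stand for ATP5MD and ATP5MPL. The values of 1 B-lineage marker are not reported here.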

Additional observations from a re-analysis of the deposited data

How the results depend on the processing

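Counts of members called stayed within 1.5 times of 22 lower and 15 higher under every other alternative. A fold threshold of 1.5 on the log2 scale left 5 lower and 2 higher, the latter being COX7A1 and COX6B2. Same-numbered libraries did not deviate together (correlations of -0.004, 0.000969 and 0.0206). These values show no pairing by number, but they cannot exclude that same-numbered libraries were handled together. The replicate block kept the call of all 43 tested members, with 22 lower and 15 higher, and moved the median of all members minus that of all genes from -0.35 to -0.3498.

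Medians minus the median of all genes, which changes by construction with the genes tested, moved with a count of 10 in every library to -0.18 for all members, -0.45 for complex II, -0.091 for III, 0.29 for IV and -0.48 for V, and with no filter to -0.79, -1.14, -0.78, -0.25 and -0.89. With limma on log2(FPKM + 1), with or without a filter, they were -0.24 for all members, -0.39 for III and -0.29 for V, and with an offset of 0.1 they were -0.22, -0.37, 0.29 for IV and -0.27 for V. Leaving out 1 library at a time gave 21 to 24 members lower and 12 to 15 higher, and medians of -0.42 to -0.31 for all members, -0.74 to -0.62 for complex II, -0.38 to -0.27 for III, 0.13 to 0.32 for IV and -0.76 to -0.66 for V. With FPKM the log2 pair ratios differed by 1.42 for MT-CYB to UQCRFS1, -2.10 for ATP5F1A to ATP5F1B and -0.89 for ATP5IF1 to ATP5F1B, and the cause was not tested.

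Members that turned had small changes. UQCRB turned to 0.0158 with upper quartile factors. UQCRQ turned to 0.13 with upper quartile factors, 0.0006 with RLE factors, 0.0004 with DESeq2, 0.0663 with a count of 10 in every library and 0.0455 without DMSO 3, in a range of -0.1703 to 0.0455 without 1 library. COX7B turned to -0.24 with library sizes alone, -0.0772 with no filter, -0.12 with every limma fit and, without DMSO 1, DMSO 2, THZ1 1 or THZ1 2, to values in a range of -0.0535 to 0.0553 over all libraries left out. With library sizes alone ATP5F1D turned to -0.0111, ATP5MF to -0.0741 and ATP5PO to -0.0253, and with limma ATP5MF turned to -0.0166 or, with the offset of 0.1, -0.0179 and ATP5PO to -0.27 or, with the offset of 0.1, -0.31. The cause was not tested.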

Other observations

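Of the subunit genes of complexes IV and V that were in the count table but not in the expression table, and so are not members, 4 could be tested. COX6A1, a subunit of complex IV, rose from 4.05, 4.59 and 2.19 CPM in DMSO-treated cells to 12.5, 17.4 and 13.8 CPM in THZ1-treated cells, a log2 fold change of 2.002 (SE 0.21, edgeR adjusted p = 2.1e-10). COX7C, a small subunit of complex IV, fell from 139 ± 16.3 to 54.6 ± 0.755 CPM (SD, n = 3 each), a log2 fold change of -1.35. COX5B, the zinc-binding subunit, fell by 1.31 and ATP5MC3, the third gene of the c subunit, fell by 1.44 on the same scale. COX4I2, the isoform known from lung, had 2 counts in 1 THZ1 library and 0 in the other 5 libraries, and COX6A2, COX7B2 and COX8C had 0 counts in all 6.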
